A study of Mus musculus with 15 samples.

Results

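NRL binding at P10 was compared with NRL binding at P4 at 8996 peaks of the mouse retina, using 4 libraries out of the 15 that the labels list for the series. The members are every peak in the deposited quantitation table, measured in P10 replicates 1 and 4 and in P4 replicates 3 and 4. No peak of the table was left out here by its value, but the table itself is not balanced between the ages. Of its peaks 4952 were in the deposited P10 peak list and not the P4 list, and 612 were in the P4 list and not the P10 list. All animals were C57BL/6J mice with no allele or treatment named in the labels. P10 retinas were taken on postnatal day 10 and P4 retinas on postnatal day 4. Each library came from 250000 dissociated retinal cells of all types, captured on beads and probed with an anti-NRL antibody by CUT&RUN, in which a tethered nuclease cuts out the DNA beside the bound protein. Nothing in the labels ties replicates to different animals, so p-values measure the spread between libraries of the same age, pooled over the 8 libraries of the table (P2 and P28 included), which may be technical. No library with a control antibody was analysed here. In whole retina, a larger share of rods among the cells and more NRL bound per rod cannot be told apart.

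NRL is a basic leucine zipper (bZIP) protein of the Maf family. It is required for a photoreceptor precursor to become a rod, and it acts with the homeodomain factor CRX and the nuclear receptor NR2E3 on rod genes. In the mouse, rods are still being born in the first postnatal days, and outer segments, the stacked discs that hold the phototransduction proteins, grow out in the second postnatal week.

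The sequences below are promoter windows that overlap 4 peaks that rose at P10 at genes of rods and photoreceptors. They are RefSeq promoter windows of build GRCm38.p6, from 250 bases before to 50 after the start site, printed 5′ to 3′ on the strand of the gene. Capitals mark the core TGCTGA or TCAGCA of the Maf recognition element, the CRX-type site GGATTA or TAATCC, and the AP-1 site TGACTCA or TGAGTCA, searched on both strands. A match is a description of letters, not a mapped binding site. The windows were chosen after their values were seen, among those with at least 150 of 300 bases under a called peak, so that part of a window can lie outside its peak.
Pde6b, chr5:108388123-108388422, plus strand: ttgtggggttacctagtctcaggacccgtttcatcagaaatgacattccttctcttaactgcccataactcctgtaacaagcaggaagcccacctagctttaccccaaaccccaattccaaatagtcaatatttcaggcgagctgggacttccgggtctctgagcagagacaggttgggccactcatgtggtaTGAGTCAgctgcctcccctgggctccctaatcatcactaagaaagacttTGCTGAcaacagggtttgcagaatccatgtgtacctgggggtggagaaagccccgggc
Grk1, chr8:13404831-13405130, plus strand: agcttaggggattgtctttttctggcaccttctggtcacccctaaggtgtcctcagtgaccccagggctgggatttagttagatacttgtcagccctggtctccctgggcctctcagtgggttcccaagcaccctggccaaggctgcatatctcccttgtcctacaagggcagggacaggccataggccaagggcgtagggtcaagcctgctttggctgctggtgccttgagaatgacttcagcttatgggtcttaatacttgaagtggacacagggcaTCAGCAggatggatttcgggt
Rbp3, chr14:33953753-33954052, plus strand: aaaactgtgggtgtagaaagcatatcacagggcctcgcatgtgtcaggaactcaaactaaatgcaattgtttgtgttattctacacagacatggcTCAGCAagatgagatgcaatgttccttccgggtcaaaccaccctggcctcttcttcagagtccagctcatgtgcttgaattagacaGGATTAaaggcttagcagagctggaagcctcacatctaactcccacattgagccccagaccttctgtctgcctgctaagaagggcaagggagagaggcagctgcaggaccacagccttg
Samd11, chr4:156255293-156255592, minus strand: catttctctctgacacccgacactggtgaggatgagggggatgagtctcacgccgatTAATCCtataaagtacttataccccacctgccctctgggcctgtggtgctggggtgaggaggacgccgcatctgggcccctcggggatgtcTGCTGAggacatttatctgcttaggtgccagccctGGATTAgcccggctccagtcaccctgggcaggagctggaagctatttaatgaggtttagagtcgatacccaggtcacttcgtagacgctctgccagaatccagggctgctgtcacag

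Counted from the start site, the Maf core lay at -8 in the Pde6b window, which also holds an AP-1 site at -57, and at 29 in the Grk1 window, beyond the end of the Grk1 peak. In the Rbp3 window the core was at -155 and the CRX-type site at -69. The Samd11 window had the core at -102 between CRX-type sites at -193 and -67. The same letters were counted in all promoters. Of 159 windows under a peak that was higher at P10, 33.3% held the Maf core (Wilson 95% interval 26.5 to 41.0), against 16.3% of 3112 windows under a peak that was not called (15 to 17.6) and 19.5% of all 32817 RefSeq windows. The CRX-type site stood in 20.1% of the windows that were higher (14.6 to 27.0), in 6.14% of those not called and in 7.06% of all windows. After centring only 5 windows lay under a peak that was higher, of which 5 held the Maf core and 0 the CRX-type site. The AP-1 site stood in 5.03%, 2.92% and 5.20%, and the GC box GGGCGG or CCGCCC in 46.5%, 73.4% and 35.6%, in the same order of sets. The median GC content was 56.7% in the windows that were higher, 62.0% in those not called and 52.7% in all windows, and its part in these shares was not tested. Windows are not replicates, and the AP-1 site and the Maf core can overlap.

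A run of microRNAs is shown because NRL peaks beside it rose. The genes Mir183, Mir96 and Mir182 lie together on chromosome 6, on the minus strand, and their products are abundant in photoreceptors. The mature sequences are those of RefSeq, with the seed, bases 2 to 8, in capitals; miR-96-5p and miR-182-5p share all seed bases but the last.
mmu-miR-183-5p: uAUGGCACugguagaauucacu
mmu-miR-96-5p: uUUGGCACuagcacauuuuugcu
mmu-miR-182-5p: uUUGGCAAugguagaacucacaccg

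The P10 libraries were deeper inside the peaks than the P4 libraries. Recovered reads in peaks were 195736 and 227692 in the P10 libraries and 85740 and 150878 in the P4 libraries, with a median of 12 and 15 reads per peak at P10 and of 6 and 10 at P4. Peaks took 3.08 and 2.84% of the library scale at P10 and 1.09 and 2.15% at P4. Values are RPKM, reads per kilobase of peak, scaled by the authors' library size, and 3 reads at the median peak width equal 1.16 to 1.47 RPKM in these 4 libraries. Across peaks, which are not independent, log2 values correlated with Pearson r of 0.89 between the P10 replicates and 0.74 between the P4 replicates. P10 values correlated with P4 replicate 3 at 0.48 and with P4 replicate 4 at 0.67 to 0.68, so the P4 replicates stood apart from each other. Positions follow GRCm38.p6 and start at 1. Intervals and bounds from reads cover counting error only.

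NRL signal was higher at P10 over most of the peak set. The log2 difference, P10 minus P4, of log2(RPKM + 1) was above 0 at 85.9% of peaks, with a median of 0.73. The median was 1.00 at peaks in the P10 list and not the P4 list, and 0.61 at peaks in both. It was 0.18 at peaks in neither list and -0.75 at peaks in the P4 list and not the P10 list. These shares and the counts below therefore depend on which peaks the table holds, and the size of that part was not tested. Both P10 libraries lay above both P4 libraries at 5303 peaks (58.9%) and below both at 568 (6.31%). Limma called 1405 peaks higher at P10, 15.6% of all, and 136 lower, 1.51% of all, at a Benjamini-Hochberg adjusted p under 0.05. With each library centred on its median peak, 259 peaks were higher (2.88%) and 293 lower (3.26%). All 259 and all 136 were called in the same direction on both scales, and 157 peaks were lower only after centring. The share of reads in peaks differs between the ages as given above, and its part in the shift of the median was not tested. Values of a peak are given below on the deposited scales, and a peak is said to rise or fall only where it was called there.

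The calls depended on single libraries. Without P4 replicate 3 limma called 179 peaks higher and 36 lower, and without P4 replicate 4 it called 2963 and 77. Without P10 replicate 1 the counts were 192 and 29, and without P10 replicate 4 they were 340 and 48. In each of these 4 fits 83 peaks were called higher (0.923%) and 9 lower (0.1%), and 77 and 9 of them were called after centring as well. With a pseudocount of 0.1 in place of 1, the counts were 5 and 3. Fold differences on the log2(RPKM + 1) scale understate the change of weak peaks.

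**Figure D1:**
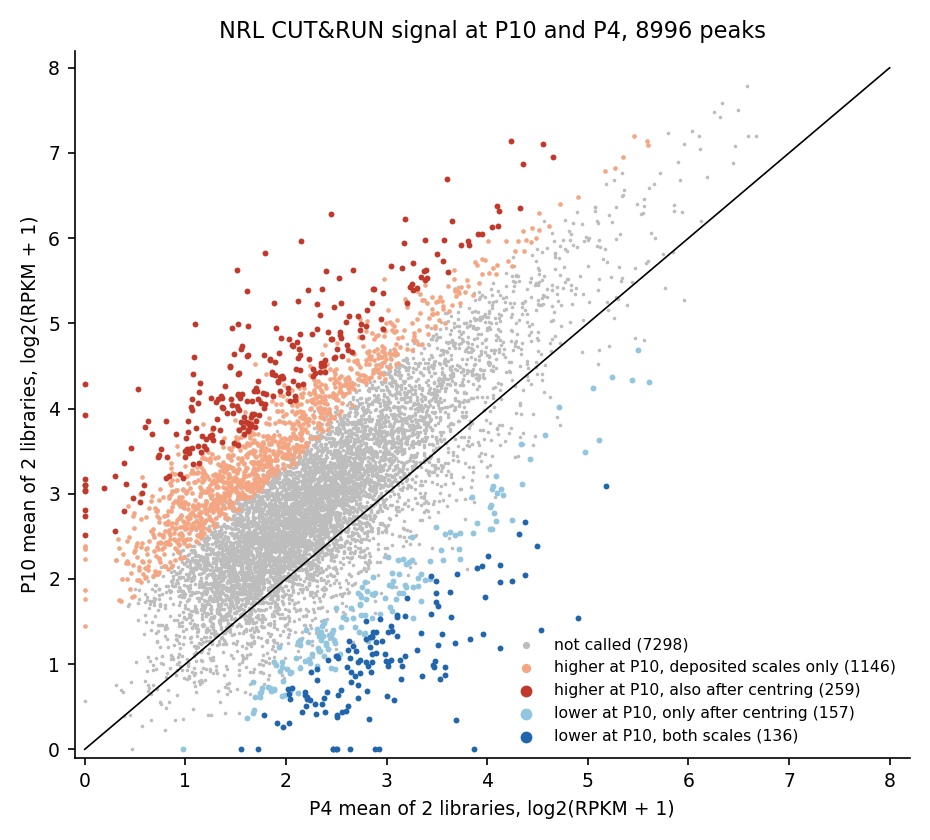
Mean NRL signal of the 2 P10 libraries (vertical) against the 2 P4 libraries (horizontal), both as log2(RPKM + 1), for 8996 peaks, 1 point each; the line marks equal signal. Most points lie above the line, 1405 peaks were called higher at P10 on the deposited scales, 259 of them also after centring, and 136 were called lower on both scales.

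The peaks that rose were mostly away from start sites. Of 2049 intron peaks 623 rose (30.4%, Wilson 95% interval 28.5 to 32.4), as did 262 of 1347 intergenic peaks (19.5%), 66 of 286 exon peaks (23.1%) and 34 of 102 peaks in 3′ untranslated regions (33.3%). Of 5106 promoter peaks, those no more than 1 kb away from a transcription start (TSS), 394 rose (7.72%, 7.02 to 8.48). The median log2 difference was 1.10 in introns, 0.82 between genes and 0.62 at promoters. Promoter peaks had more reads (median 48, against 40 elsewhere) and were wider (median 399 bp, against 252 bp). In 4 bins of peaks by reads, 24.3% of other peaks and 8.74% of promoter peaks rose in the bin with the fewest reads, and 29.5% and 9.23% in the bin with the most. These bins do not match RPKM: in the bin with the most reads the median mean signal at P10 was 11.3 RPKM at promoters and 20.6 RPKM elsewhere. The part of reads, width and RPKM in the contrast was not tested. After centring 46 promoter peaks and 213 other peaks were higher (0.901 and 5.48%).

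Few promoter peaks fell. They were 10 (0.196%), against 55 intron peaks (2.68%) and 61 intergenic peaks (4.53%). Of the 780 peaks over 50 kb from a TSS, 65 fell (8.33%) and 148 rose (19.0%), and after centring 123 were lower (15.8%) and 28 higher (3.59%). Peaks that rose had a median width of 241 bp and a median mean signal of 10.6 RPKM at P10 and 2.22 RPKM at P4. Peaks that fell had 1.04 RPKM at P10 and 6.26 RPKM at P4. In the deposited peak lists, 1227 of the peaks that rose were in the P10 list and not the P4 list, 157 in both, and 123 of the peaks that fell were in the P4 list and not the P10 list. Of all 8996 peaks, 4952 were in the P10 list and not the P4 list, 2537 in both and 612 in the P4 list and not the P10 list, so 24.8% of the first kind and 6.19% of the second rose, and 20.1% of the last kind fell. The lists hold the authors' peaks of the same ages in the same series. List membership and the calls are therefore not independent, and these shares are no support for the calls.

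**Figure D2:**
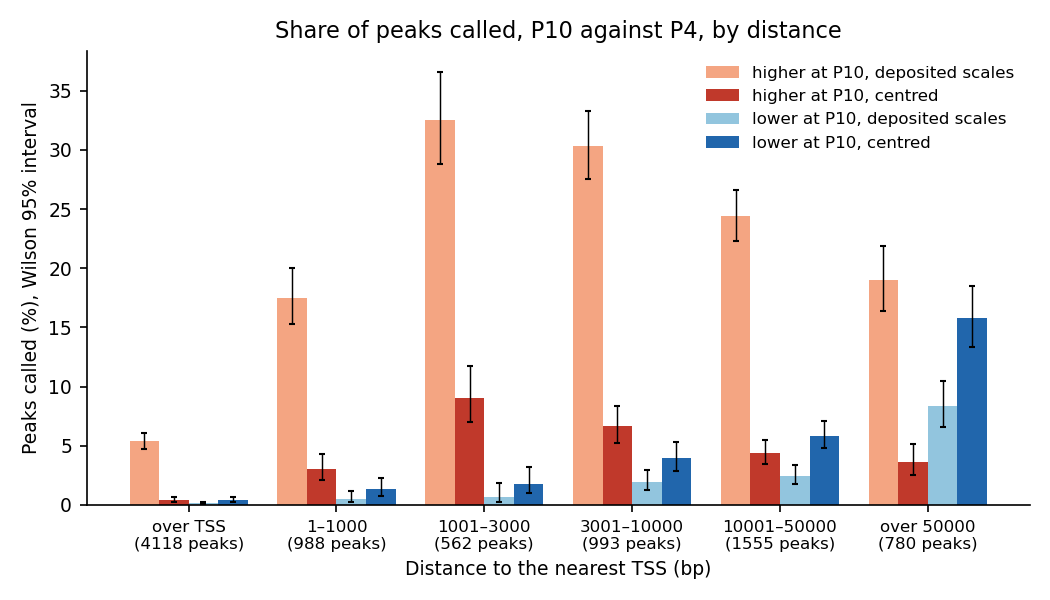
Share of peaks called, in percent of the peaks at each distance from the nearest TSS (bp), with Wilson 95% intervals; each group of 4 bars gives peaks higher at P10 on the deposited scales and after centring, then peaks lower at P10 on the deposited scales and after centring. The share that was higher on the deposited scales is lowest over the TSS (5.37%) and highest in the bin that starts just beyond 1 kb (32.6%), and both shares that were lower are highest beyond 50000 bp (8.33 and 15.8%).

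Most genes of the rod phototransduction cascade gained NRL signal. The strongest peak within 50 kb rose at 20 of the 28 genes of the list that have a peak, and none fell, against 12.6% of all 5978 genes with a peak that rose and 0.753% that fell. Counting any peak, 22 of the 28 had one that rose, against 16% of all genes (1.02% had one that fell). A gene with more peaks has more chances of such a call, and 4768 of the 5978 genes had 1 peak. After centring 11 of the 28 were higher, against 2.26% of all genes (1.86% were lower). The median log2 difference of the list was 1.92, against 0.70 over all genes. Leaving out P10 replicate 1 gave 5 genes, P10 replicate 4 gave 8, P4 replicate 3 gave 10 and P4 replicate 4 gave 27. The list is one that earlier results of these data had already shown to move, so its count is a description.

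Rod transducin relays the light signal to the effector enzyme. Gnat1, its alpha subunit, had 2 promoter peaks that rose: the stronger (chr9:107679577-107680076) had 72.8 and 48.2 RPKM at P10 and 4.32 and 11.7 RPKM at P4, and the second had 24.7 and 15.5 RPKM at P10 and 2.32 and 3.13 RPKM at P4. At Gnb1, its beta subunit, 4 of 4 peaks rose, and the steepest was not the promoter. That intron peak, at -4468 bp from the nearest start site (chr4:155538179-155538460), had 49.2 and 24.3 RPKM at P10 and 1.80 and 3.54 RPKM at P4 (3.32 ± 0.55, adjusted p = 0.000613), while the promoter peak had 169 and 121 RPKM at P10 and 23.9 and 62.0 RPKM at P4 (1.87 ± 0.56). The gamma subunit gene Gngt1 was not called: 8.08 and 5.6 RPKM at P10 and 2.03 and 2.29 RPKM at P4 (adjusted p = 0.0538).

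Genes of the effector enzyme and of the channel rose too. The rod phosphodiesterase lowers cyclic GMP, and the genes of its 3 rod subunits each had peaks that rose. The Pde6b promoter (chr5:108388192-108388546, the window printed above) had 59.9 and 58.7 RPKM at P10 and 7.87 and 16.9 RPKM at P4 (2.26 ± 0.54, adjusted p = 0.00758). The inhibitory subunit gene Pde6g had 29.3 and 29.0 RPKM at P10 and 1.97 and 9.96 RPKM at P4 at its promoter (2.40 ± 0.60), and Pde6a rose at 4 of 5 peaks (log2 differences of 1.57 to 3.13 over the 5). Of the cyclic GMP-gated channel, the alpha subunit gene Cnga1 had 74.9 and 64.7 RPKM at P10 and 7.84 and 24.7 RPKM at P4 at its promoter, at -974 bp (2.23 ± 0.57), and the beta subunit gene Cngb1 had 16.4 and 11.4 RPKM at P10 and 1.66 and 7.45 RPKM at P4 at its promoter (1.63 ± 0.56, adjusted p = 0.0453). At each of these peaks both P10 libraries were above both P4 libraries, as at 58.9% of all peaks.

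Genes that end the light response split into called and not called. Recoverin, a calcium sensor that restrains the photoreceptor kinase GRK1, had a peak over its 3′ untranslated region (chr11:67703219-67703413) with 37.2 and 23.7 RPKM at P10 and 1.95 and 2.20 RPKM at P4 (3.32 ± 0.52, adjusted p = 0.000437). Rgs9bp, the anchor of the GTPase-activating complex, had 32 and 19 reads at P10 and 0 and 1 at P4 at its strongest peak, a ratio of scaled reads of 52.8 (95% counting interval 9.07 to 2127). Gnb5, the beta subunit of that complex, had 10.9 and 9.39 RPKM at P10 and 1.19 and 0.895 RPKM at P4 (2.44 ± 0.46). The kinase gene Grk1 rose at its promoter, with 18.7 and 14.8 RPKM at P10 and 2.87 and 3.63 RPKM at P4 (2.06 ± 0.51), while its stronger intron peak was not called (adjusted p = 0.0514). Arrestin, Sag, which helps to shut off the light response, had one of the strongest promoters of the list and was not called: 122 and 81.1 RPKM at P10 and 24.9 and 49.8 RPKM at P4 (1.47 ± 0.56, adjusted p = 0.0687).

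Rdh12, a member of the list, and Rbp3, which is not on it, handle retinoids. Rdh12, a retinol dehydrogenase of photoreceptors, had 7 and 10 reads at P10 and none at P4 in a promoter peak, at least 5.87-fold higher against a floor of 3 reads over both P4 libraries. The promoter of Rbp3, the retinoid-binding protein of the interphotoreceptor matrix, had 14.7 and 7.77 RPKM at P10 and 1.32 and 3.95 RPKM at P4 (1.79 ± 0.52, adjusted p = 0.0207). Pde6g, Cnga1, Cngb1, Grk1, Gngt1, Sag, Rdh12 and Rbp3 were chosen after their values were seen. Of 24 called peaks at the rod genes above, 6 passed in each fit that left out 1 P10 or P4 library; leaving out P10 replicate 1 lost 17, P10 replicate 4 lost 14 and P4 replicate 3 lost 13 (adjusted p up to 0.373), and P4 replicate 4 lost none.

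**Figure D3:**
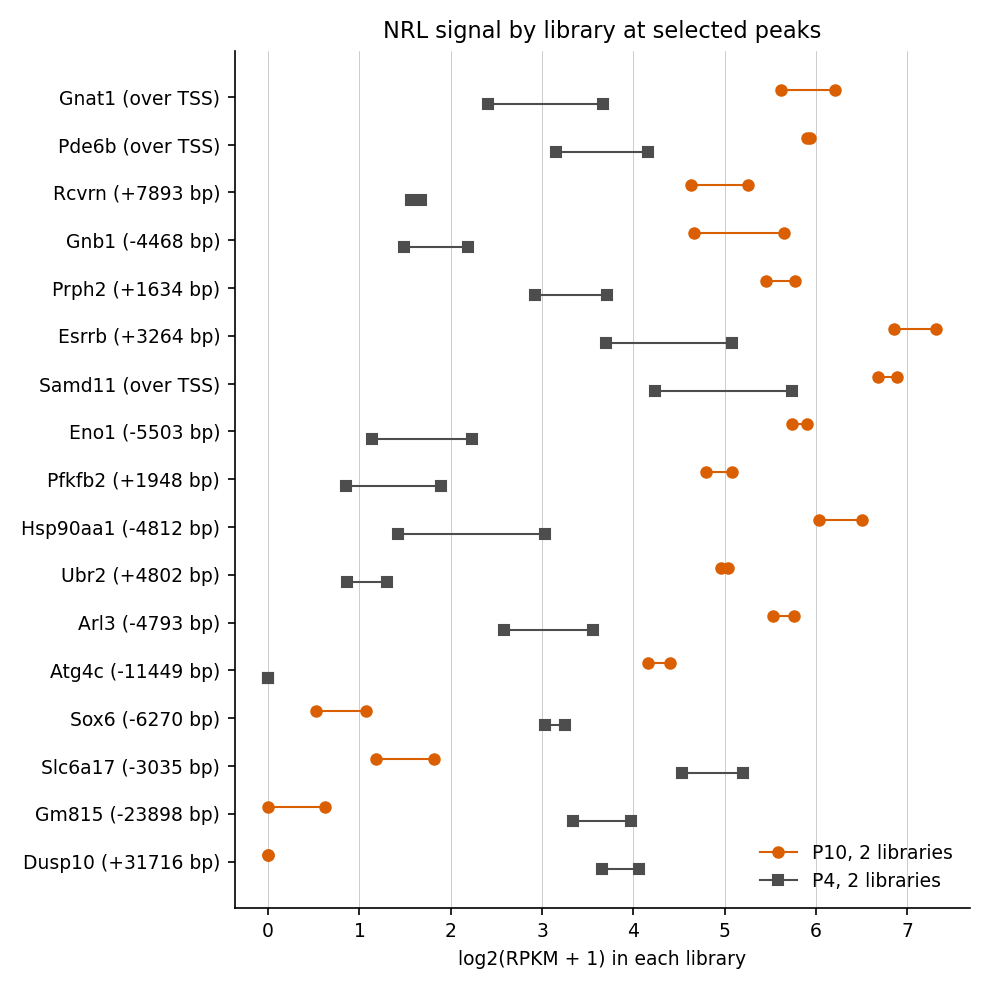
NRL signal in each library, as log2(RPKM + 1), at 17 peaks with their distance from the nearest TSS; circles are the 2 P10 libraries and squares the 2 P4 libraries, joined by a line. The groups do not overlap at any of the 17 peaks, and P10 is higher at all of them but the 4 at the bottom, Sox6, Slc6a17, Gm815 and Dusp10, where it is lower. Each is the steepest named peak of a chosen gene, and the rule for naming the steepest peaks required groups that do not overlap. Over all peaks, both P10 libraries lay above both P4 libraries at 58.9% and below both at 6.31%.

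Genes that build the outer segment and its cilium changed less uniformly. Among outer segment and axoneme genes, 7 of 14 rose at the strongest peak, with a median of 1.53, against 12.6% and 0.70 over all genes. After centring 2 were higher, against 2.26% of all genes. Tulp1, a tubby-like protein of transport to the outer segment, is on this list and on the phototransduction list. Prph2, the tetraspanin of disc rims, rose at 4 of 4 peaks, and its strongest, in an intron (chr17:46912112-46912749), had 53.3 and 42.8 RPKM at P10 and 6.57 and 12.1 RPKM at P4 (2.29 ± 0.53, adjusted p = 0.00613). Beyond the Prph2 peaks the annotation gives the next ones to Ubr2, a ubiquitin ligase gene, after a gap of 7162 bases. The steepest of them (chr17:46928100-46928273) had 31.7 and 30.1 RPKM at P10 and 1.46 and 0.821 RPKM at P4 (3.91 ± 0.51, adjusted p = 9.47e-05); on 3 reads in all at P4, the ratio of scaled reads was 26.6 (95% counting interval 8.77 to 132). The other tetraspanin, Rom1, had 128 and 88.4 RPKM at P10 and 30.3 and 73.2 RPKM at P4 and was not called (adjusted p = 0.138).

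Cilium and transport genes held some of the steeper peaks of the photoreceptor lists, and 9 of 32 rose (median 0.89), 2 of them after centring. Over all genes 12.6% rose (median 0.70) and 2.26% were higher after centring. Arl3, a small GTPase that releases lipidated cargo for the outer segment, had 45.2 and 53.2 RPKM at P10 and 5.01 and 10.7 RPKM at P4 in an intron (2.57 ± 0.54, adjusted p = 0.00328). Arl13b, the ciliary GTPase that activates ARL3, had 19.4 and 19.9 RPKM at P10 and 0 and 5.69 RPKM at P4 (3.00 ± 0.65). Both P10 libraries were above both P4 libraries at each, as at 58.9% of all peaks, but the P4 replicates differed widely at Arl13b. At Fam161a, a protein of the ciliary base, 1 of 3 peaks rose, with 18 and 21 reads at P10 and 0 and 3 at P4, a ratio of 13.5 (95% counting interval 4.28 to 68.1). Tulp1, Rom1, Prph2 and Fam161a were named after their values were seen. Of 15 calls at the outer segment and cilium genes examined peak by peak, 2 passed in each fit without 1 P10 or P4 library; leaving out P10 replicate 1 lost 12, P10 replicate 4 lost 11 and P4 replicate 3 lost 10. The list counts without these libraries were 0, 1 and 2 for the outer segment and 1, 1 and 1 for the cilium, and 13 and 13 without P4 replicate 4.

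Photoreceptor transcription factor genes rose at 3 of 19 strongest peaks (15.8%, against 12.6% of all genes; median 1.18), and 1 was higher after centring. Counting any peak, 7 of the 19 had one that rose, against 16% of all genes. This count is not matched for the number of peaks per gene, and 4768 of all 5978 genes had 1 peak. At the strongest peak, leaving out the P10 libraries or P4 replicate 3 gave 0 to 1 genes, and leaving out P4 replicate 4 gave 12. Esrrb, an orphan nuclear receptor of rods, carried the steepest. Its intron peak (chr12:86507673-86508054) had 158 and 115 RPKM at P10 and 12 and 32.9 RPKM at P4 (2.70 ± 0.56, adjusted p = 0.0031), and 4 of its 6 peaks rose. Samd11 and Samd7, corepressors of photoreceptors, each rose at the promoter: Samd11 had 118 and 101 RPKM at P10 and 17.8 and 52.3 RPKM at P4 (1.80 ± 0.57), and Samd7 had 97.6 and 70.0 RPKM at P10 and 14 and 36.9 RPKM at P4 (1.81 ± 0.57). Neither was called after centring. The strongest Samd7 peak, in an intron, had 225 and 156 RPKM at P10 and 43.2 and 116 RPKM at P4 and was not called (adjusted p = 0.0884).

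The partners of NRL did not pass the test. Crx had 3 peaks with log2 differences of 0.91 to 1.07, and its strongest had 57.9 and 40.0 RPKM at P10 and 14.1 and 35.0 RPKM at P4 (adjusted p = 0.169). Nr2e3 had 3 peaks, the strongest with 38.3 and 40.5 RPKM at P10 and 8.58 and 20.3 RPKM at P4 (1.5 ± 0.56, adjusted p = 0.0614). At Nrl itself 1 of 3 peaks rose, a promoter peak with 18.1 and 11.8 RPKM at P10 and 2.59 and 5.83 RPKM at P4 (1.66 ± 0.54, adjusted p = 0.0369). P4 replicate 4, the higher of the P4 libraries, stayed below both P10 libraries at each of these 3 peaks. Both P10 libraries lay above both P4 libraries at 58.9% of all peaks.

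Among other bZIP genes, 3 of 25 rose (12%, against 12.6% of all genes; median 0.84), and after centring none was higher and 1 was lower; leaving out either P10 library or P4 replicate 3 gave 0, and leaving out P4 replicate 4 gave 8. The immediate early gene Fos rose at its promoter, with 62.3 and 42.7 RPKM at P10 and 6.98 and 22.5 RPKM at P4 (1.94 ± 0.57). Its upstream peak had 74.1 and 51.0 RPKM at P10 and 12.2 and 63.3 RPKM at P4, and the ages overlapped. Jun, its partner in AP-1, had 12.1 and 11.7 RPKM at P10 and 7.38 and 13.9 RPKM at P4 (0.21 ± 0.56, adjusted p = 0.797). Of 15 calls at the factor genes examined, none passed in each fit without 1 library: leaving out P10 replicate 1 lost 14, P10 replicate 4 lost 11, P4 replicate 3 lost 14 and P4 replicate 4 lost 1.

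Ribbon synapse genes rose at 10 of 24 strongest peaks and fell at 1, with a median of 1.40. Over all genes 12.6% rose and 0.753% fell, with a median of 0.70. After centring none of the list was higher and 1 was lower, against 2.26 and 1.86% of all genes. Nsf, the ATPase that recycles SNARE complexes, had 21.6 and 29.5 RPKM at P10 and 2.11 and 9.48 RPKM at P4 (2.20 ± 0.59). Syp, a synaptic vesicle protein, had 8.96 and 7.47 RPKM at P10 and 0.760 and 1.28 RPKM at P4 (2.20 ± 0.46). The P10 libraries were above the P4 libraries at both, as at 58.9% of all peaks. Slc6a17, a vesicular amino acid transporter, went the other way, with 1.28 and 2.53 RPKM at P10 and 22.1 and 35.8 RPKM at P4 (-3.36 ± 0.54, adjusted p = 0.000561). The count that rose was 0 without P10 replicate 1, 1 without P10 replicate 4, 0 without P4 replicate 3 and 15 without P4 replicate 4.

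Glycolysis genes included some of the steepest peaks of the whole set. At the strongest peak 5 of 18 rose (median 1.05), 3 of them after centring; leaving out P10 replicate 1, P10 replicate 4 or P4 replicate 3 gave 3 genes, and leaving out P4 replicate 4 gave 8. With all libraries, 12.6% of all genes rose (median 0.70) and 2.26% were higher after centring. Upstream of Eno1, the glycolytic enolase, a peak (chr4:150230796-150231218) had 58.9 and 52.5 RPKM at P10 and 1.20 and 3.71 RPKM at P4 (4.14 ± 0.56, adjusted p = 0.00016). The Eno1 promoter had 7.96 and 6.04 RPKM at P10 and 3.21 and 4.21 RPKM at P4 and was not called (adjusted p = 0.254). Pfkfb2, which makes the activator of phosphofructokinase, had 32.9 and 26.8 RPKM at P10 and 0.804 and 2.71 RPKM at P4 (3.57 ± 0.55). Slc16a1, a lactate transporter, had 8 and 7 reads at P10 and 0 and 1 at P4, a ratio of 15.5 (95% counting interval 2.39 to 654).

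Of the mitochondrial genes 5 of 29 rose (17.2%, against 12.6% of all genes; median 0.81) and 1 after centring, Ndufb3, a subunit of complex I, with 15.4 and 22.2 RPKM at P10 and 0.442 and 1.99 RPKM at P4 (3.23 ± 0.59). Of the lipid genes 6 of 30 rose (20%, median 0.97), against 12.6% of all genes (median 0.70). After centring 1 was higher, against 2.26% of all genes. It was Pitpnm1, a phosphatidylinositol transfer protein, with 28.0 and 25.2 RPKM at P10 and 2.05 and 4.61 RPKM at P4 (2.73 ± 0.51). Without P10 replicate 1, P10 replicate 4, P4 replicate 3 and P4 replicate 4 in turn, the mitochondrial count was 1, 1, 0 and 13 and the lipid count 2, 2, 2 and 15. Genes of sphingolipid synthesis were named after their values were seen. Ormdl3, a brake on the first enzyme, had 18 and 19 reads at P10 and 0 and 2 at P4 (ratio 19.2, 4.94 to 164), and Degs2, a desaturase, had 9.25 and 9.23 RPKM at P10 and 1.30 and 1.09 RPKM at P4 at its steeper peak (2.22 ± 0.46).

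In 7 lists of other functions, most of them used by all cells, 3.70 to 14.8% of the genes rose, against 12.6% of all genes. Of the chaperones 4 of 27 rose (median 0.63), and the steepest lay upstream of Hsp90aa1, a heat shock protein (chr12:110707540-110707916), with 89.4 and 64.2 RPKM at P10 and 1.68 and 7.20 RPKM at P4 (4.03 ± 0.58, adjusted p = 0.000264). Of the cell cycle genes 2 of 22 rose, Cdkn2c, a cyclin-dependent kinase inhibitor, and E2f3; E2f3 had 30.3 and 33.8 RPKM at P10 and 2.87 and 10.5 RPKM at P4 (2.31 ± 0.56). Ribosomal proteins rose at 2 of 26 genes, splicing at 1 of 26, chromatin modifiers at 4 of 28, and autophagy, lysosome and ubiquitin at 1 of 27, with medians of 0.52, 0.55, 0.48 and 0.62. Solute carriers rose at 2 of 15 genes, of which Slc6a6, the taurine transporter, had 35.5 and 19.2 RPKM at P10 and 1.59 and 4.16 RPKM at P4 (2.89 ± 0.56). Leaving out either P10 library or P4 replicate 3 gave at most 2 genes in each of these lists, and leaving out P4 replicate 4 gave 4 to 8. Of 17 calls at these genes and Atg4c, 2 passed in each fit; leaving out P10 replicate 1 lost 13, P10 replicate 4 lost 11, P4 replicate 3 lost 14 and P4 replicate 4 lost 1.

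**Figure D4:**
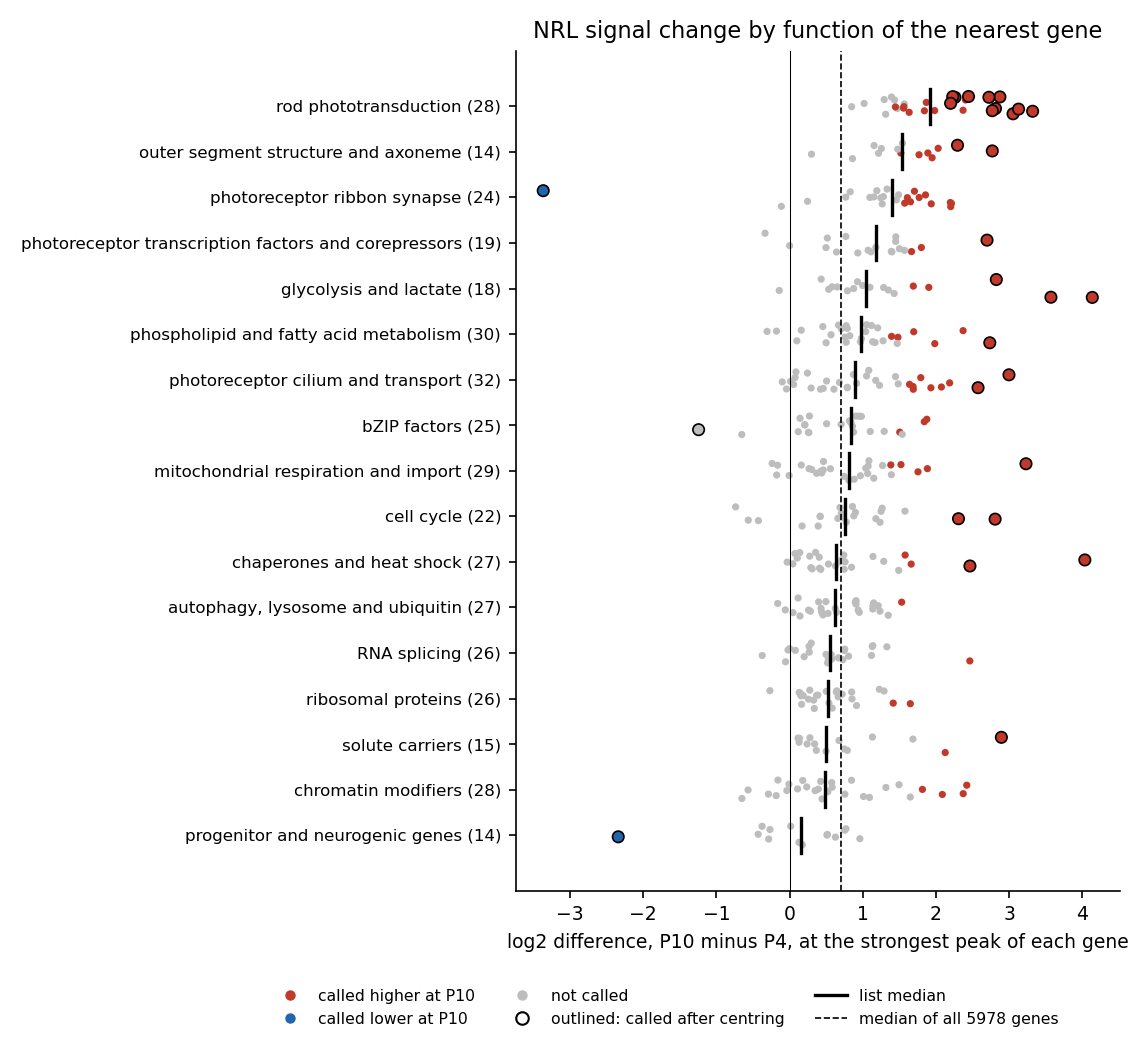
Log2 difference, P10 minus P4, at the strongest peak of each gene (1 point a gene) in 17 lists by function, with the number of genes with a peak in brackets; the short line is the list median and the dashed line the median of 5978 genes, 0.70. The list medians run from 1.92 for rod phototransduction to 0.15 for progenitor genes, and outlined points were called after centring.

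A larger share of peaks rose at loci with 3 or more peaks, which held 331 of the 1405 peaks that rose. At the 303 genes with 3 or more peaks within 50 kb, 331 of 1040 peaks rose (31.8%) and 9 fell; 9.06% of peaks rose at genes with 1 peak and 21.3% at genes with 2. Promoters made up 34.1% of the peaks at the first kind of gene and 75% at genes with 1 peak, and the part of place in these shares was not tested. At 99 of the 303 genes at least 2 peaks were called, at 32 at least 3, and after centring 18 had at least 2. At 12 genes every peak rose, among them Gnb1, Prph2, Tdrd7 and Nsf.

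Ankrd33b, an ankyrin repeat gene, had the most called peaks, 5 of 8 over 86189 bp. The steepest had 26.5 and 13.9 RPKM at P10 and 0.855 and 2.88 RPKM at P4 (2.91 ± 0.54), and the strongest, 43.5 and 28.9 RPKM at P10 and 10.4 and 20.6 RPKM at P4, was not called. Slco4a1, an organic anion transporter, rose at 4 of 5 peaks, one with 60.7 and 35.9 RPKM at P10 and 3.55 and 7.18 RPKM at P4 (2.97 ± 0.55). Tdrd7, a tudor domain protein of RNA granules, rose at 4 of 4, its strongest with 88.0 and 73.1 RPKM at P10 and 10.1 and 28.0 RPKM at P4 (2.18 ± 0.56). Peaks of a locus therefore differed in both size and call. Of 24 calls at 6 such loci (Ankrd33b, Slco4a1, Tdrd7, Nadk2, Ubtd1 and Epb41), 4 passed in each fit; leaving out P10 replicate 1 lost 17, P10 replicate 4 lost 12 and P4 replicate 3 lost 18.

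**Figure D5:**
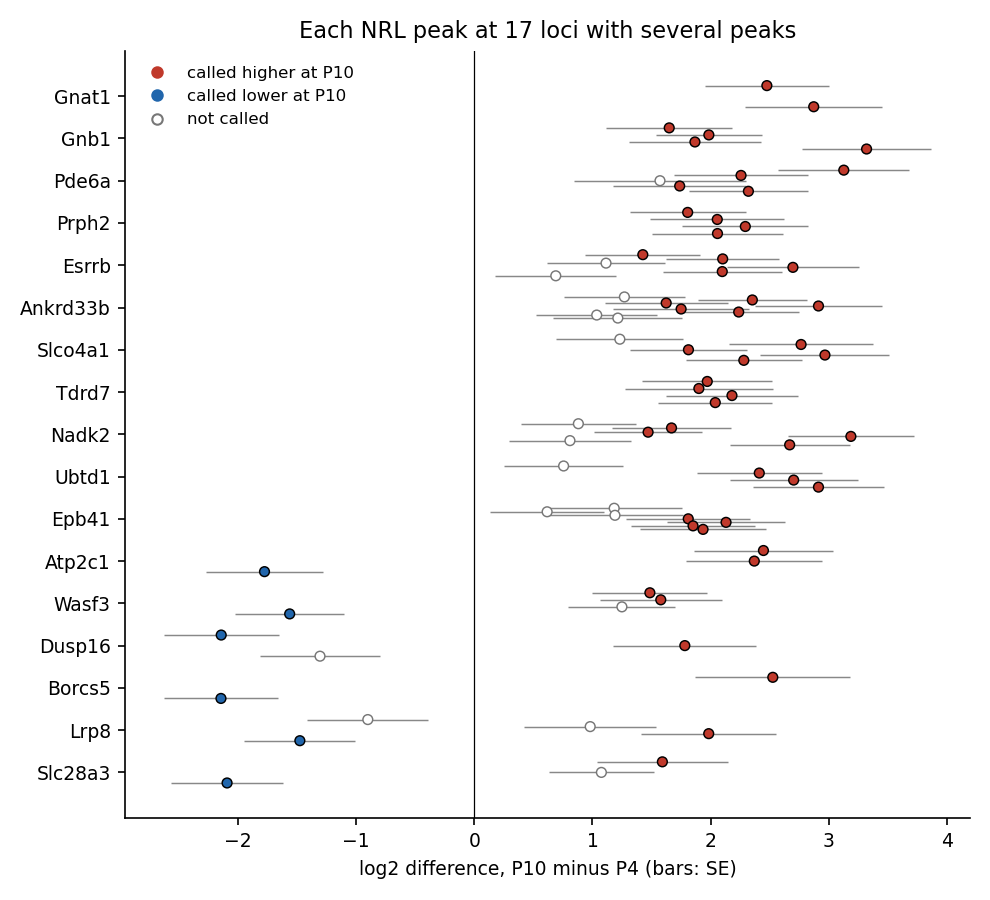
Log2 difference, P10 minus P4, of each peak within 50 kb at 17 loci, with its SE as a bar; filled points were called and open points were not. Most loci lie to the right of 0 throughout, and the 6 at the bottom, Atp2c1, Wasf3, Dusp16, Borcs5, Lrp8 and Slc28a3, have called peaks on both sides.

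At 6 genes peaks were called in both directions on the deposited scales, and after centring only Atp2c1 had a call in each direction, while the other 5 had 1 or 2 lower peaks and no higher one. At Atp2c1, a Golgi calcium pump, the promoter had 53.9 and 50.2 RPKM at P10 and 4.95 and 16.7 RPKM at P4 (2.37 ± 0.58), while a peak at -28971 bp had 0.569 and 1.80 RPKM at P10 and 4.58 and 8.25 RPKM at P4 (-1.78 ± 0.49). At Dusp16, a phosphatase of MAP kinases, a promoter peak had 1.52 and 0.962 RPKM at P10 and 8.07 and 9.63 RPKM at P4 (-2.14 ± 0.49), and an intron peak had 9.80 and 8.32 RPKM at P10 and 0.564 and 4.44 RPKM at P4 (1.78 ± 0.61, adjusted p = 0.0489). Of the 14 calls at the 6 genes, none passed in each fit: leaving out P10 replicate 1 lost 12, P10 replicate 4 lost 13, P4 replicate 3 lost 13 and P4 replicate 4 lost 2 (adjusted p up to 0.546).

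The steepest falls included sites with almost no signal left at P10. An intron peak of Dusp10, another MAP kinase phosphatase (chr1:184066097-184066369), had no read at P10 and 25 and 30 at P4, at least 17.7-fold lower against a floor of 3 reads over both P10 libraries. The peak nearest Gm815 had 1 and 0 reads at P10 and 21 and 30 at P4, 49.2-fold lower (95% counting interval 8.45 to 1982). Ece1, an endothelin-converting enzyme, had 3.72 and 2.14 RPKM at P10 and 11.7 and 24.2 RPKM at P4 (-2.22 ± 0.54). All P10 values lay below all P4 values at these peaks, which the rule for naming the steepest falls required. Over all peaks this was so at 6.31%. Of the 14 progenitor and neurogenic genes with a peak, 1 fell and none rose at the strongest peak (median 0.15), against 0.753% of all genes that fell, and 1 had another peak that rose. Leaving out P10 replicate 4 lost the fall, and leaving out P4 replicate 4 gave 3 genes that rose. The gene that fell, Sox6, a SoxD transcription factor, had 2 and 1 reads at P10 and 16 and 17 at P4, 10.6-fold lower (3.33 to 54.1). Of 11 calls at the falling genes examined, 2 passed in each fit; leaving out P10 replicate 1 lost 5, P10 replicate 4 lost 6, P4 replicate 3 lost 4 and P4 replicate 4 lost 3.

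Peaks near noncoding genes rose in part at great distance from their start. Beside the microRNA run printed above, 2 of 4 peaks given to Mir183 rose: the nearest (chr6:30172714-30172967) had 52.1 and 42.7 RPKM at P10 and 4.5 and 18.0 RPKM at P4 (2.24 ± 0.59, adjusted p = 0.0122). The peak given to Mir182, among the strongest of the set, had 201 and 140 RPKM at P10 and 52.2 and 105 RPKM at P4 and was not called (adjusted p = 0.132). At Mir124-2hg, a host gene of miR-124, the promoter had 50.0 and 40.9 RPKM at P10 and 4.03 and 15.1 RPKM at P4 (2.36 ± 0.59). A site at -198160 bp from it had 12 and 12 reads at P10 and none at P4, at least 8.29-fold higher. The Mir183, Mir182 and Mir598 peaks and the Mir124-2hg promoter were named after their values were seen. Of 14 calls at noncoding genes, 7 passed in each fit; leaving out P10 replicate 1 lost 5, P10 replicate 4 lost 5 and P4 replicate 3 lost 6.

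The steepest rises included genes outside the lists. An intron peak at -11449 bp from the nearest start of Atg4c, an autophagy protease (chr4:99206419-99206642), had 24 and 36 reads at P10 and none at P4, at least 20.7-fold higher (adjusted p = 1.45e-05). Ccdc126 had 49.4 and 47.4 RPKM at P10 and 0.847 and 2.86 RPKM at P4 (4.21 ± 0.58), and Inpp5d, an inositol phosphatase, had 75.5 and 47.9 RPKM at P10 and 2.49 and 4.40 RPKM at P4 (3.82 ± 0.56). Of 10 calls at such genes, 8 passed in each fit without 1 library. The 6 strongest peaks of the table, nearest Ccdc86, Samd7, Gm33677, Msi1, Mir182 and Sipa1l3, were not called. Near Ccdc86 the values were 254 and 186 RPKM at P10 and 59.5 and 130 RPKM at P4 (1.29 ± 0.55, adjusted p = 0.0975).

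Markers of cell types showed NRL signal chiefly at rod genes. Over all genes with a peak, 12.6% rose at the strongest peak (median 0.70) and 2.26% were higher after centring. All 6 rod markers had a peak, 3 rose (median 1.88, 3 higher after centring), and their summed signal was 354 to 477 RPKM at P10 and 59.1 to 130.5 RPKM at P4. Of 18 cone markers 7 had a peak and 2 rose, Clca3a1 and Gnat2, with a sum of 71.9 to 84.7 RPKM at P10 and 29.6 to 61.6 RPKM at P4; neither was called after centring. Leaving out P10 replicate 1 gave 0 rod markers that rose, P10 replicate 4 gave 2, P4 replicate 3 gave 3 and P4 replicate 4 gave 5, and for cone markers the counts were 0, 0, 0 and 2. Of 18 bipolar markers 4 had a peak, with 30.3 to 53.5 RPKM at P10 and 28.1 to 47.6 RPKM at P4; none was called at its strongest peak, and 1 had another peak that rose. Of 20 amacrine, horizontal and ganglion markers 2 had a peak, 14 to 18.0 RPKM at P10 and 6.4 to 13.6 RPKM at P4, and of 11 pigment epithelium markers 1 did. No Müller glia, astrocyte, microglia or vessel marker had one. The part of cell numbers in these values was not tested.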

How the data were processed

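Anti-NRL CUT&RUN was made from C57BL/6J retina, with 10 pg of heterologous spike-in DNA per experiment, per the labels' protocols. Per the submitters' processing notes the tools were MACS2 2.2.5, Bowtie2 2.3.5.1, Trimmomatic 0.38, bedtools 2.29.0, Picard 2.20.8 and SAMtools 1.9, with GRCm38.p6 and ASM584v2 as builds. The deposited peak lists, 1 per age, hold the authors' signal and score of each peak; only list membership was used. The deposited table gives RPKM for 8996 peaks in 8 libraries, 2 at each of 4 ages. In each column the deposited RPKM had been divided by the width of another row; whole reads were recovered for every value within 0.001, and RPKM was recomputed with each peak's own width. How the library scales arose, and whether the spike-in entered them, is not stated in the sources used.

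Limma 3.58.1 (R 4.3.3) was fitted to log2(RPKM + 1) of all 8 libraries with age as a factor (4 residual degrees of freedom, trended and robust variance), with Benjamini-Hochberg adjustment over all 8996 peaks and a threshold of 0.05, on the deposited scales and, as a second scale, after subtracting each library's median. An exact permutation test of 2 against 2 libraries cannot give a p below 0.333. The fit was tested on simulated data. Tables were made in Python 3.11.15 with pandas 2.3.3, SciPy 1.17.1 and NumPy 2.4.6, and figures with Matplotlib 3.10.9. Peaks were given to the gene that the deposited annotation names. Gene counts take the strongest peak within 50 kb of a TSS. Bounds use a floor of 3 reads over an age.

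Members and lists were chosen with earlier results of these data known. Named were the 16 steepest higher and 10 steepest lower calls at least as strong as the median peak with libraries that do not overlap; loci with 3 or more peaks, up to 14, and those called both ways; up to 4 genes per list by adjusted p; the 6 strongest peaks; 12 chosen rod and AP-1 loci; and 8 noncoding peaks. Others are said to be chosen after their values were seen. Alternatives were other pseudocounts, a filter of 10 mean reads, P4 and P10 libraries alone, ordinary variance moderation, voom on recovered reads, values as deposited, each library left out, and a replicate block. Some loci that this rule names are not reported here.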

Additional observations from a re-analysis of the deposited data

How the results depend on the processing

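P10 (replicates 1 and 4) and P4 (replicates 3 and 4) share only 1 number, and nothing in the labels says that numbers pair libraries. Across peaks, the difference of replicate 4 minus 1 at P10 and of replicate 4 minus 3 at P4 correlated at r = -0.011. A replicate block over all 8 libraries, an alternative chosen after seeing the data, left 2 residual degrees of freedom, fitted P10 replicate 1 exactly and gave 183 calls (153 higher at P10, 30 lower). Without the block there were 1541 calls (1405 higher, 136 lower). Centring gave 552 (259 higher, 293 lower) and the widths as deposited 560 (514 and 46). A pseudocount of 0.1 gave 8 calls (5 and 3), 0.5 gave 797 (719 and 78) and 4 gave 2751 (2506 and 245). The filter of 10 mean reads left 5112 peaks with 1203 calls, 57 of them lower. P10 and P4 libraries alone gave 1671, and 920 when centred. Voom gave 2073 on the deposited scales, and 1085 on reads in peaks, where 419 were higher and 666 lower. Leaving out 1 library of any age gave 215 to 3040 calls, with 179 to 2963 higher and 29 to 174 lower; after centring, leaving out a P10 or P4 library gave 50 to 432. Leaving out P4 replicate 4 raised the count and leaving out P4 replicate 3 or either P10 library lowered it. The filter tests fewer peaks; the other causes were not tested. Under these alternatives, no named peak reversed its direction where it was called in the limma fit described above or in the alternative. Sign changes at peaks called in neither fit were not counted as reversals. P4 replicate 3 had the fewest reads in peaks of the P10 and P4 libraries, 85740, with a median of 6 per peak.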
